A study of Rattus norvegicus with 14 samples.

Results

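The genes described here form the core of the NF-κB switch: the DNA-binding subunits Nfkb1, Rela, Relb and Rel, the inhibitors Nfkbia and Nfkbib, the kinase genes Ikbkb, Chuk and Ikbkg, and the adaptor Traf6. Members were taken from non-control array probes whose gene name equals one of these 10 symbols. Of the 10 genes, 8 had a probe, and these genes were read by 9 of the 30367 probes, which carry 26276 gene names. Rela had 2 probes, and Rel and Relb had none under those names and were not analysed here. Expression was measured in colonocytes, the epithelial cells lining the colon, from male Wistar rats given free access for 15 days to 1 of 2 isocaloric diets. Protein supplied 14% of the energy in the normal-protein diet (NPD, 7 rats) and 55% in the high-protein diet (HPD, 7 rats), and the labels name no other treatment or genetic change. Cells were detached by perfusing the colon with an EDTA buffer and tapping it, so the RNA is that of a bulk epithelial preparation for which no cell sorting is described. RNA was labelled with Cy3 and read on 1 single-colour array per rat.

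NF-κB proteins are dimers that wait in the cytoplasm, bound to inhibitors of the IκB family. Microbial products, interleukin 1 and tumour necrosis factor act through receptors, adaptors and ubiquitin chains on the IκB kinase complex, which marks the inhibitor for destruction and frees the dimer to enter the nucleus. In the gut epithelium this pathway is known for keeping cells alive and for sensing bacteria, and much of its control is exerted on proteins, which were not measured by the arrays.

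The 60-base probes below carried the differences described in the following paragraphs. The Rela pair is printed because both read the same transcript and gave different results. They are written 5′ to 3′ in lower case, as given in the scanner files with rn4 coordinates, and each lies within the annotated mRNA of its gene. Nfkb1 was read at chr2:233091704-233091763 on the minus strand, Traf6 at chr3:86846359-86846418 on the plus strand and Nfkbia at chr6:75730438-75730497 on the minus strand. The first Rela probe (A_64_P046388) starts at base 1654 of its transcript, at chr1:208272360-208272419, and the second (A_44_P184726) at base 180, at chr1:208263526-208263582, both on the plus strand. The interval given for the second Rela probe is shorter than its 60 bases.
Nfkb1: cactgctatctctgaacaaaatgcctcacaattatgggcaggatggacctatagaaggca
Rela, first probe: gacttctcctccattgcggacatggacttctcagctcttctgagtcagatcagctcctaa
Rela, second probe: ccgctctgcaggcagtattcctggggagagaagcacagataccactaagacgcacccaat
Nfkbia: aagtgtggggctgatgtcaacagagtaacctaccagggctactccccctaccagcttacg
Traf6: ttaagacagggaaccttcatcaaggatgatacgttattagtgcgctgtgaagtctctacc

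Levels are given as log2 signal with the median probe of each array set to 0. A log2 fold change is the mean of the HPD-fed rats minus the mean of the NPD-fed rats. Differences were tested with limma over all probes, and a probe was called at a Benjamini-Hochberg adjusted p (q-value) under 0.1. The 14 arrays lay on 2 slides, with 4 NPD and 3 HPD arrays on slide 1 and 3 NPD and 4 HPD arrays on slide 2, and slide alone changed 40.1% of the probes at that threshold. Over all probes 17 were called, all higher in HPD-fed rats (0.056%), and none of the 9 member probes was. At an unadjusted p under 0.05, 11.4% of all probes and 2 member probes (Nfkb1 and Traf6) passed. In the lower direction alone the share of all probes was 5.55%. Across the array the diets' median difference was 0.11 after centring and 0.00067 after cyclic loess between arrays, so a member at 0 lay slightly under the typical probe of the centred data.

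Nfkb1, Rela by its first probe, Nfkbia and Traf6 had lower mean levels in HPD-fed rats, with log2 fold changes between -0.34 and -0.64. The means of Nfkbib, Ikbkb, Chuk, Ikbkg and the second Rela probe differed by at most 0.18 either way. The larger differences were thus those of Nfkb1, 1 of the 2 Rela probes, 1 inhibitor and the adaptor. The kinase genes, the inhibitor Nfkbib and the second Rela probe had the smaller ones. The mean of both Rela probes gave -0.15, so the place of Rela depends on the probe. None of these differences passed the adjusted test, and in a bulk preparation fewer cells that use a gene cannot be told apart from less of its RNA per cell.

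**Figure D1:**
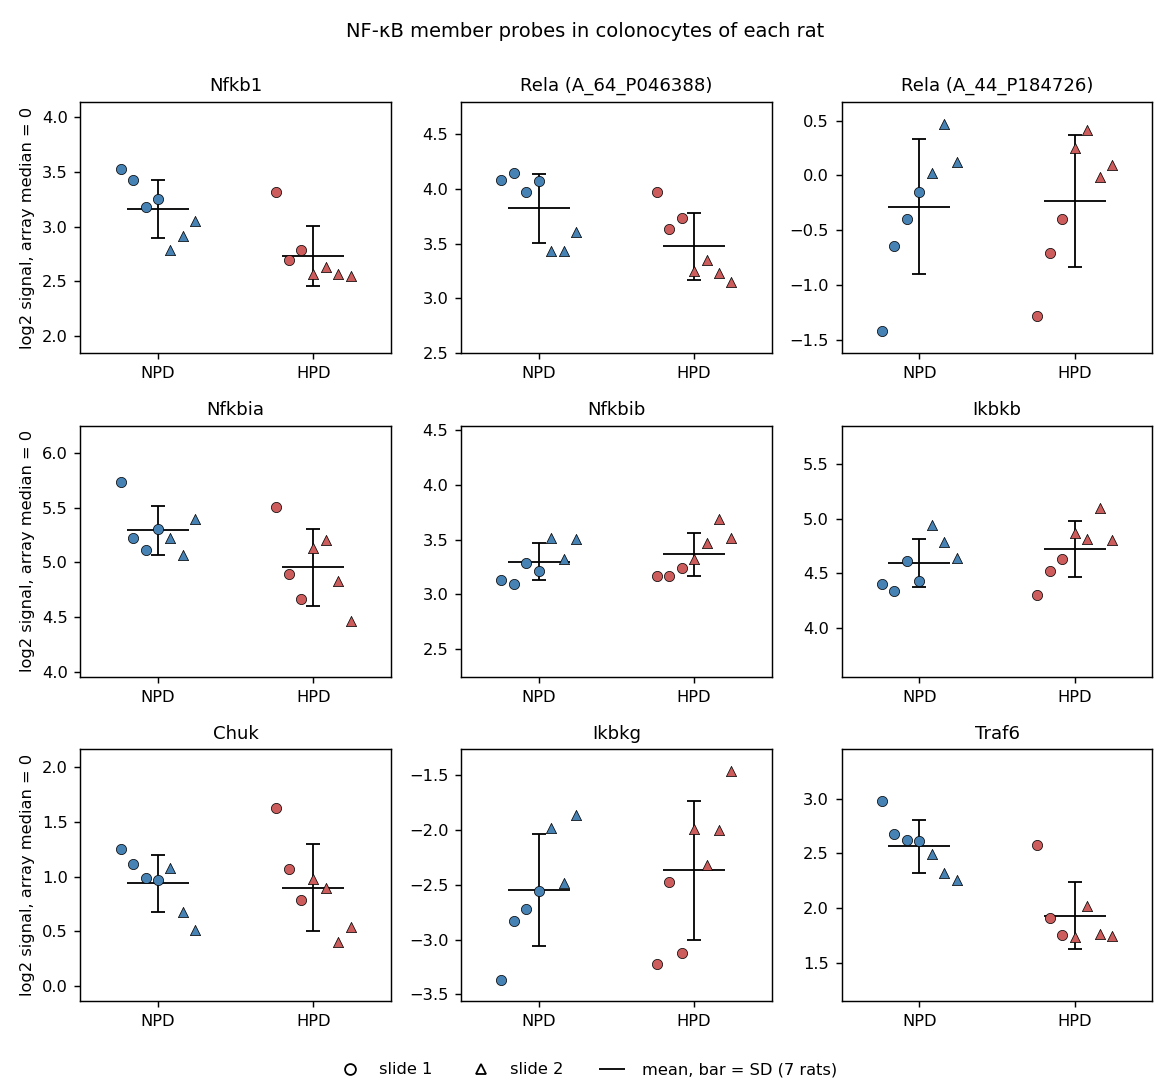
Log2 signal of the 9 member probes in each rat, with the array median at 0, for NPD-fed (blue) and HPD-fed (red) rats. Circles are arrays of slide 1 and triangles arrays of slide 2, horizontal lines are means and bars the SD of 7 rats, and every panel spans the same height. In Traf6 and Nfkb1, 6 of 7 HPD-fed rats lie below every NPD-fed rat, and the exception in both is replicate 1.

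Traf6, the ubiquitin ligase that links Toll-like and interleukin 1 receptors to the IκB kinase complex, showed the largest difference among the members. Its level ran from 2.25 to 2.97 with a median of 2.61 in NPD-fed rats, and from 1.73 to 2.58 with a median of 1.76 in HPD-fed rats. Of the 7 HPD-fed rats, 6 were below the lowest NPD-fed rat, and replicate 1, at 2.58, lay among the NPD-fed rats, so the groups overlapped through that animal. The means were 2.56 ± 0.24 and 1.93 ± 0.31 (SD, n = 7 each), a log2 fold change of -0.64 (95% CI -0.96 to -0.31) or 0.644 times the NPD level. The limma q-value was 0.417, while the exact two-sided permutation test of this probe alone gave p = 0.00291. On each slide taken alone every HPD array was below every NPD array, with differences of -0.64 on slide 1 and -0.54 on slide 2. The share of all probes without overlap within slides was not counted. Regrouping arrays only within their slides gave an exact permutation p of 0.000816, the smallest that this regrouping can give. With slide as a block, Traf6 had a log2 fold change of -0.59 and a q-value of 0.202. Without HPD replicate 1 it was called, at -0.74 with q = 0.0519, and 151 probes in all were then called, 65 higher and 86 lower. That array had the highest Traf6 level of its diet, so leaving it out had to widen the difference. Leaving out any other single array left Traf6 uncalled, with limma q-values of 0.304 to 0.627.

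Nfkb1, which encodes the precursor of a DNA-binding subunit, had levels of 2.79 to 3.52 with a median of 3.18 in NPD-fed rats and of 2.55 to 3.32 with a median of 2.64 in HPD-fed rats. Again 6 of 7 HPD-fed rats were under the lowest NPD-fed rat, replicate 3 only narrowly, and replicate 1 stood with the NPD-fed rats. The means were 3.16 ± 0.27 and 2.73 ± 0.27 (SD, n = 7 each), a log2 fold change of -0.43 (95% CI -0.75 to -0.11), or 0.742 times the NPD level. Limma gave q = 0.417, and the exact permutation test gave p = 0.0146 over all arrays and p = 0.00245 within slides. The difference was -0.41 on slide 1 and -0.34 on slide 2, and each of the 7 HPD-fed rats was below the NPD mean of its own slide. The diets overlapped on slide 1 and not on slide 2. Slide itself shifted Nfkb1 by -0.39 (slide 2 minus slide 1), a distance close to that between the diets. Blocking on slide gave -0.37 with q = 0.207.

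Rela, the activating subunit most often paired with the Nfkb1 product, was read differently by its 2 probes. The first probe ran from 3.44 to 4.15 (median 3.97) in NPD-fed rats and from 3.15 to 3.98 (median 3.35) in HPD-fed rats. The groups overlapped over all arrays and, through HPD replicate 1, on slide 1, but did not overlap on slide 2. That slide held only 3 NPD and 4 HPD arrays, Nfkb1 and Traf6 did not overlap there either, and the share of all probes was not counted. The means were 3.82 ± 0.32 and 3.48 ± 0.31 (SD, n = 7 each), a log2 fold change of -0.35 (95% CI -0.71 to 0.013) with a limma q-value of 0.444. The slide shift of this probe was -0.55, and within slides the diet differences were -0.29 and -0.25. The exact permutation p was 0.0659 over all arrays and 0.00163 within slides, and the slide block gave -0.27 with q = 0.207.

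The second Rela probe, which lies near the start of the transcript and was printed once per array, ran from -1.42 to 0.47 (median -0.15) in NPD-fed rats and from -1.28 to 0.42 (median -0.016) in HPD-fed rats. Its groups overlapped along their whole range and its SD within a diet, 0.62 in NPD-fed and 0.60 in HPD-fed rats, was wider than that of the first probe. The log2 fold change was 0.051 (95% CI -0.59 to 0.69, exact permutation p = 0.874), an interval that holds the first probe's -0.35. Slide moved this probe by 0.92, opposite to the first probe, and with slide as a block its diet difference turned to -0.081. The mean of both probes gave a log2 fold change of -0.15 for Rela. Whether the 2 probes differed in their response to diet was not tested.

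Nfkbia encodes IκBα, the inhibitor that NF-κB itself induces as a brake. Levels ran from 5.07 to 5.74 (median 5.22) in NPD-fed rats and from 4.46 to 5.51 (median 4.89) in HPD-fed rats. Of the 7 HPD-fed rats, 4 were below every NPD-fed rat and the other 3 lay among them, so the groups overlapped on both slides. Means of 5.30 ± 0.22 and 4.96 ± 0.35 (SD, n = 7 each) gave a log2 fold change of -0.34 (95% CI -0.68 to 0.0049, limma q = 0.441). The exact permutation p was 0.0548 over all arrays and 0.0767 within slides. Slide moved it little, by -0.12, and the diet difference was -0.33 on slide 1 and -0.32 on slide 2.

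Nfkbib, which encodes the related inhibitor IκBβ, had means of 3.30 ± 0.17 in NPD-fed and 3.37 ± 0.20 in HPD-fed rats (SD, n = 7 each), with medians of 3.29 and 3.32 and highest levels of 3.52 and 3.69. The log2 fold change was 0.068 (95% CI -0.18 to 0.32, exact permutation p = 0.489), and the diets overlapped on each slide. The difference between the 2 inhibitors was not tested.

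The kinase genes had overlapping levels in both diets. Ikbkb, the catalytic subunit of the canonical pathway, ran from 4.34 to 4.94 (median 4.61) in NPD-fed rats and from 4.30 to 5.09 (median 4.81) in HPD-fed rats. Chuk, the catalytic subunit also used in the alternative pathway, ran from 0.51 to 1.25 (median 0.99) and from 0.40 to 1.62 (median 0.89). Ikbkg, the regulatory subunit that binds ubiquitin chains, ran from -3.37 to -1.86 (median -2.56) and from -3.22 to -1.46 (median -2.32). For each of these genes the array-to-array range within a diet exceeded the distance between the diet medians. The log2 fold changes were 0.13 for Ikbkb (95% CI -0.17 to 0.42), -0.042 for Chuk (-0.42 to 0.34) and 0.18 for Ikbkg (-0.44 to 0.79), with exact permutation p-values of 0.336, 0.823 and 0.575. Ikbkg was well above background on only 3 of 7 NPD and 5 of 7 HPD arrays, so its level is poorly measured. Slide moved Ikbkb by 0.38, Chuk by -0.39 and Ikbkg by 0.88 (slide 2 minus slide 1), in each case further than diet did.

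No member separated the diets completely over all 14 arrays, as did 0.274% of all probes. The HPD arrays were dimmer, with a median probe signal of 66.0 ± 7.11 against 84.4 ± 11.2 in NPD arrays (SD, n = 7 each, exact permutation p = 0.00524), and its part in the member differences was not tested. With slide as a block 0.0889% of all probes were called and 14.6% had an unadjusted p under 0.05. Among the members none was called in that fit, and Nfkb1, Traf6 and the first Rela probe had p-values under 0.05. When the mean pixel signal was corrected with normexp, 16.9% of all probes were called, and with slide as a block as well 27.9%. Both fits called 4 of 9 member probes, which were Nfkb1, the first Rela probe, Nfkbia and Traf6, all lower in HPD-fed rats. In the normalized table that the authors deposited, diet alone called 18 genes (0.0681%), of which 11 were higher and 7 lower, and no member. Adding the slide term to the fit of that table brought the share to 10.5% and called Nfkb1, Rela and Traf6 of the 8 members, again lower. Their log2 fold changes in that fit were -0.44, -0.25 and -0.61, with q-values of 0.0518, 0.0694 and 0.0382.

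**Figure D2:**
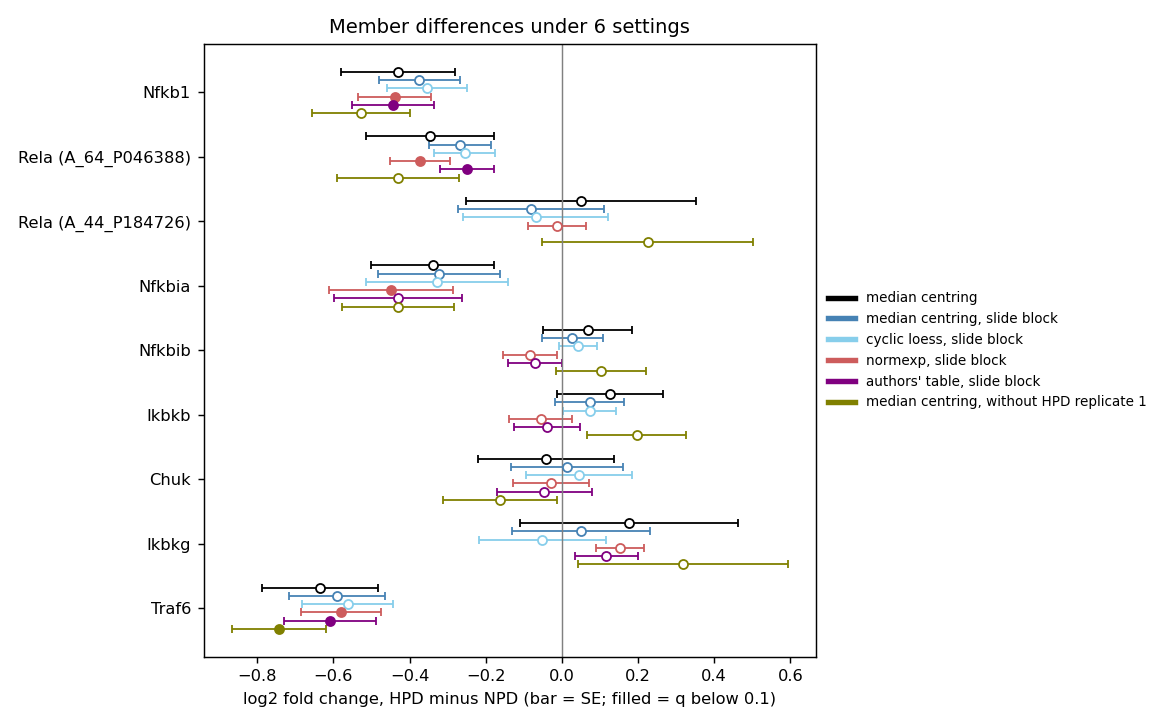
Log2 fold changes (HPD minus NPD) of the member probes under 6 settings, with bars for the SE and filled points for q under 0.1 (the authors' table holds 1 Rela value, drawn beside the first probe). Traf6, Nfkb1, Nfkbia and the first Rela probe stay below 0 under all 6 settings shown, whereas the second Rela probe, Nfkbib, Ikbkb and Chuk lie on both sides of 0 and Ikbkg is below 0 only with cyclic loess and slide.

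Some members varied together among rats of the same diet and slide, and most pairs did not. After diet and slide means were taken out, Nfkb1 and the first Rela probe had a Pearson correlation of 0.87 over the 14 arrays (Spearman 0.84). Traf6 followed Nfkb1 at 0.77 (0.65), Nfkbia at 0.77 (0.62) and Chuk at 0.78 (0.70). These are descriptions over arrays that share their centring and hybridisation, and 16 of the 36 pairs of member probes were above 0, with a median of -0.19 and a range from -0.69 for Nfkb1 with Ikbkb to the 0.87 above. HPD replicate 1 and HPD replicate 2 lay farthest from the middle for Nfkb1, and without them its correlation was 0.73 with the first Rela probe, 0.55 with Traf6 and 0.17 with Chuk (0.47 over all arrays). The first Rela probe and Chuk went from 0.41 to 0.15 without the same arrays. For Nfkbia the farthest arrays were replicate 1 of each diet, and without them its correlation with Traf6 was 0.54. The 2 Rela probes, which read 1 transcript, had a correlation of -0.30, which was -0.09 without HPD replicates 1 and 2 and 0.02 without replicate 1 of each diet, so it rests on those arrays. Without replicate 1 of each diet, the second Rela probe went from -0.66 to -0.25 with Traf6 and from -0.55 to -0.09 with Nfkbia. The signs followed the slide shifts (slide 2 minus slide 1). Nfkb1, the first Rela probe, Nfkbia, Chuk and Traf6, positive with each other, had shifts of -0.55 to -0.12. The other member probes, positive with each other, had shifts of 0.29 to 0.92, and every pair between these sets was negative. Correlations over other probes are not given, and the part of array differences was not tested.

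**Figure D3:**
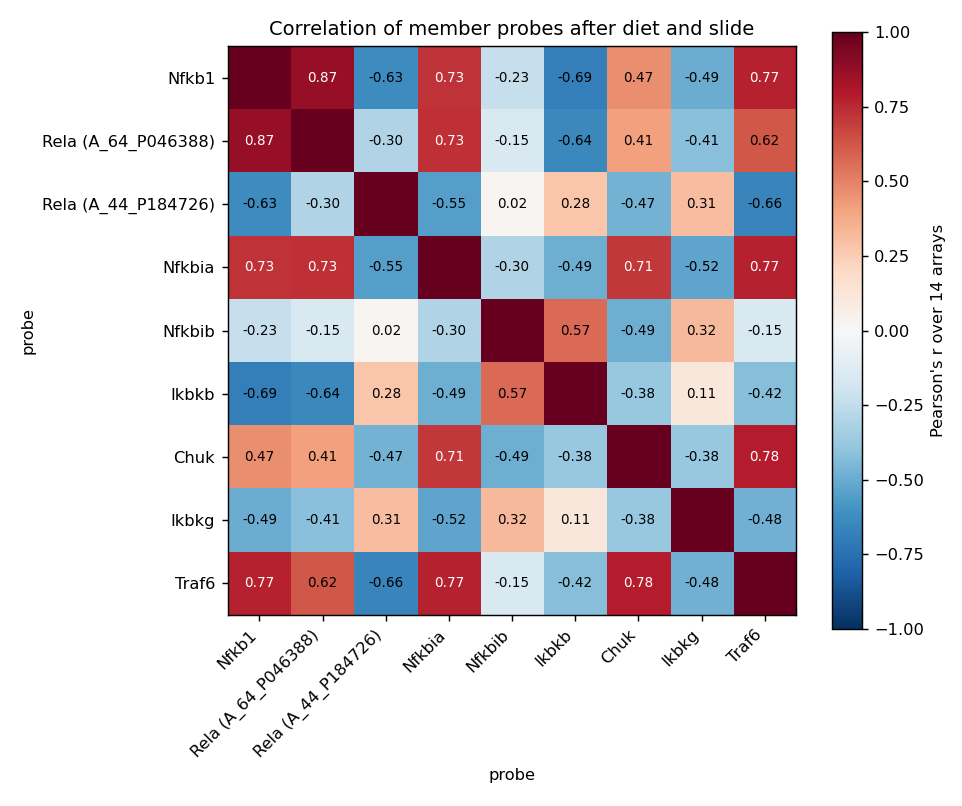
Pearson correlations between the 9 member probes over 14 arrays after removal of diet and slide means, from -1 (blue) to 1 (red). Nfkb1, the first Rela probe, Nfkbia, Chuk and Traf6 form a block of positive values between 0.41 and 0.87, and the second Rela probe is negative with each of the 5. Several of these values shrink without replicate 1 of each diet, as for Nfkb1 with Chuk (0.03).

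Promoter sequence was read for the members from the RefSeq tables of assembly GRCr8, which held 7 of the 10 genes. The 250 bases before each start site were searched on both strands for the κB consensus motif, which 6.33% of all 33469 promoters in the table held. Among the members with a promoter, Nfkbia held 1 match, 31 bases before its start, and Rel, which was not analysed on the array, held 4 that partly overlap. Nfkb1, Rela, Nfkbib, Chuk and Ikbkg had no match in this window. The same search was made for Nfkb2 and Nfkbie, the neighbours in the pathway with lower levels described next, and each held 1 match. They were the only genes of the further lists searched, and were chosen with earlier results known. Their matches therefore cannot relate the motif to the level. The Nfkbia and Nfkb2 promoters are printed because both genes encode parts of the switch and carry the motif near the start site. Capitals mark the motif, and the positions are chr6:78597073-78597322 on the minus strand for Nfkbia and chr1:255108124-255108373 on the plus strand for Nfkb2. A match says only that the letters are there, not that the site is bound.
Nfkbia: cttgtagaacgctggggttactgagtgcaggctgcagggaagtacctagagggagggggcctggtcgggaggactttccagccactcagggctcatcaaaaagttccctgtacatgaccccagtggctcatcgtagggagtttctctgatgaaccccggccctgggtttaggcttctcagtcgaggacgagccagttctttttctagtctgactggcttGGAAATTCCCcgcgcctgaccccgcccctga
Nfkb2: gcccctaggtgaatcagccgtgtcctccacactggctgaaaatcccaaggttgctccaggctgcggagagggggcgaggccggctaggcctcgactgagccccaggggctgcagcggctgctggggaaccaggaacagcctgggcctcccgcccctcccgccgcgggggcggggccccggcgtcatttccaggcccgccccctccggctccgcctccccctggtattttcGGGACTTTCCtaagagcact

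Further genes of the pathway were read by 1 probe each, the brightest, from 5 lists with 81 genes, of which 74 were on the array. Of these 37 had a higher and 37 a lower mean in HPD-fed rats, their median difference was -0.0001 on the log2 scale, with 0.11 for the whole array and 0.054 for the 17483 probes well above background on all arrays, as 61 of the 74 were, and none was called. An unadjusted p under 0.05 was found for 10 lower and 2 higher of the 74 genes, beside the 5.55% lower and 11.4% in either direction of all probes. Among the 18412 probes left by a filter on dim probes, which are closer to these genes in signal, it was 15.8% in either direction. The lower share among them was not counted, so the 5.55% is not a like share for the 10 lower genes. A lower mean was found for 35.8% of all probes and for 42.2% of those well above background on all arrays. With cyclic loess between arrays 39 of the 74 were lower, and the median was -0.029. The genes past that unadjusted limma threshold are named below, each with the exact permutation p of its probe, and their limma q-values ran from 0.417 to 0.436. Both tests read the same difference on the same arrays, so for genes picked this way the permutation p is not separate support.

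Among 5 further subunits and inhibitors, 3 were lower and 2 higher. Nfkb2, the subunit gene of the alternative pathway, had levels of 4.15 ± 0.16 in NPD-fed and 3.85 ± 0.15 in HPD-fed rats, a log2 fold change of -0.30 (SD, n = 7 each, exact permutation p = 0.00524, limma q = 0.417). Nfkbie, the gene of the inhibitor IκBε, went from 0.83 ± 0.25 to 0.45 ± 0.20, at -0.38 (exact permutation p = 0.0128), and all 7 HPD-fed rats were below the NPD mean. Nfkb2 and Nfkbie were thus lower, as were Nfkb1 and Nfkbia, while Nfkbib and 2 of the 5 genes of this list were higher.

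Receptors and adaptors were spread to both sides, with 13 higher and 11 lower of 24. Traf2, the adaptor of tumour necrosis factor receptors, had a log2 fold change of -0.31 (exact permutation p = 0.0181). Ripk1, the kinase scaffold of the same receptor complex, stood at -0.34 and Tnfrsf11a, the receptor RANK, at -0.45 (exact permutation p = 0.0262 and 0.0589). These 3 were the list's only genes past the unadjusted threshold. Of the 17 genes of ubiquitin and kinase steps above the IκB kinases, 9 were lower. Rnf31, the catalytic subunit of the linear ubiquitin ligase, was at -0.46 (exact permutation p = 0.00291) with all 7 HPD-fed rats below the NPD mean. Cul1, the scaffold of the ligase that marks phosphorylated IκB for destruction, was at -0.52 and Tbk1, an IKK-related kinase, at -0.63 (exact permutation p = 0.046 and 0.0402).

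The 11 brakes on the array held 6 higher and 5 lower genes, and Pdlim2, a nuclear ligase that targets Rela for degradation, was at 0.40 (exact permutation p = 0.0221). Tnfaip3, the deubiquitinase A20, had no probe of that name. Among 17 target genes 9 were lower and 8 higher. Tnf, the cytokine, was at -0.53 and Icam1, an adhesion molecule, at -0.45 (exact permutation p = 0.035 and 0.0437), each with all 7 HPD-fed rats below the NPD mean. Nos2, the inducible nitric oxide synthase, went the other way, from -1.20 ± 0.28 to -0.66 ± 0.28 (SD, n = 7 each), a log2 fold change of 0.55 (exact permutation p = 0.00583), with no HPD-fed rat below the NPD mean. The 3 targets thus stood on both sides, and none passed the adjusted test.

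**Figure D4:**
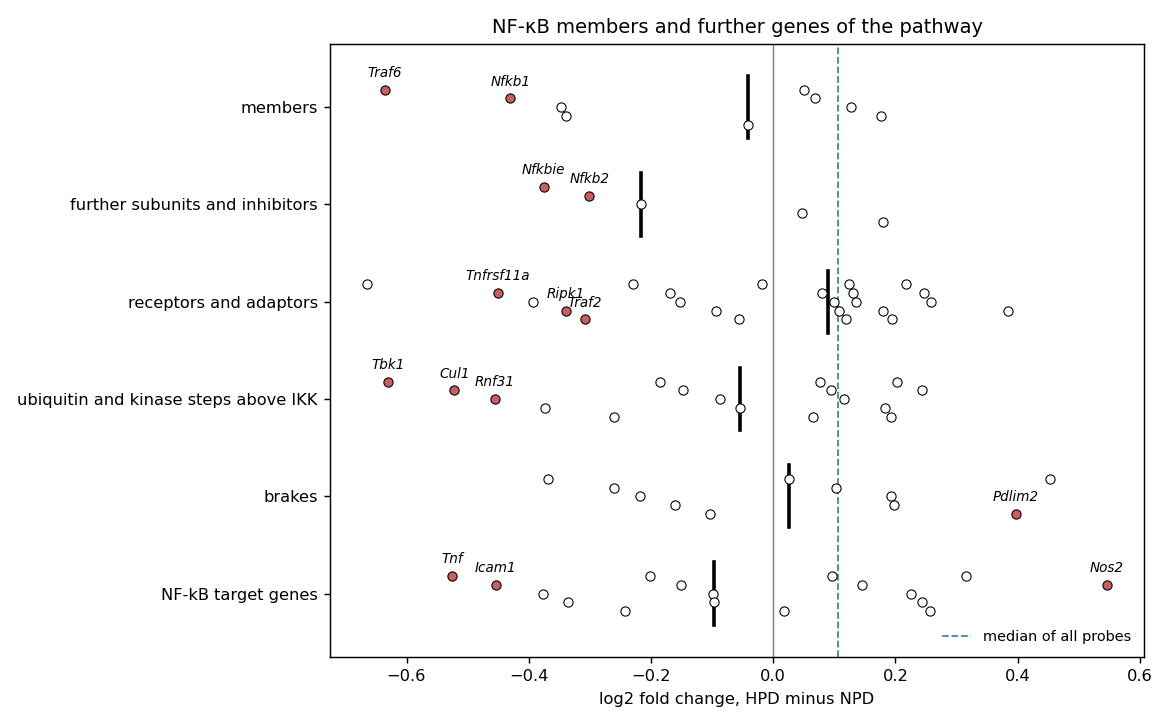
Log2 fold changes (HPD minus NPD) of the 9 member probes and of 74 further pathway genes in 5 lists, with filled named points for an unadjusted p under 0.05 and black bars for list medians. The dashed line is the median of all probes, 0.11, and the named points lie mostly to the left, with Pdlim2 and Nos2 to the right.

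The labelled cell type was checked with markers. All 12 epithelial markers were well above background on every array, and 8 were higher and 4 lower in HPD-fed rats. Their summed signal ran from 13.2 to 13.5 in NPD-fed and from 13.3 to 13.9 in HPD-fed rats on the log2 scale (exact permutation p = 0.402). Krt19, the only marker of this list with an unadjusted limma p under 0.05, was at a log2 fold change of -0.36 (exact permutation p = 0.0181). Immune cells use the same pathway, and 8 of 15 immune markers were above background on every array. The summed immune signal ran from 6.72 to 7.20 in NPD-fed and from 6.48 to 6.86 in HPD-fed rats on the log2 scale (exact permutation p = 0.0839), with Lyz2 at -0.56 and Itgam at 0.34. Of the 15 immune markers 7 were higher and 8 lower in HPD-fed rats, and a summed signal follows its brightest markers most. The summed stromal and muscle signal, with 13 markers of which 8 were above background on every array, ran from 3.99 to 4.94 and from 4.03 to 4.70 (exact permutation p = 0.519). In that list Col1a1 was at 0.35, Col3a1, above background on 1 array, at 0.61 and Myh11 at -0.48, and Lum was not above background on any array. Among 7 goblet cell markers Agr2 was at -0.63, Clca1 at -0.56 and Spink4 at 1.82, and the summed signal ran from 12.3 to 12.9 and from 12.0 to 13.3 (exact permutation p = 0.204). The summed signal of 3 red blood cell markers was higher in HPD-fed rats, from 5.17 to 5.93 in NPD-fed and 5.51 to 7.24 in HPD-fed rats (exact permutation p = 0.0111). Of these markers Hba-a2 was at 0.52 (exact permutation p = 0.0035), and Hbb and Alas2, at 0.076 and 0.087, had exact permutation p-values of 0.955 and 0.727. The part of these cell types in the member differences was not tested.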

How the data were processed

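RNA from 14 rats was hybridised on SurePrint G3 Rat arrays, which the authors scanned with Agilent Feature Extraction 10.7.3.1. Per the file headers, the processed signal is a background-subtracted intensity. The authors also deposited a table of log2 values centred by array with 1 value per gene, whose signal column is not given in the sources used here. The study's methods name 1 further rat in each diet that was removed as an outlier, not analysed here.

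Processed intensity was put on the log2 scale, spots of a probe were averaged without those marked as outliers, and each array was centred on its median over probes. No filter on dim probes was used. Diet was the only term of the fit in limma 3.58.1 (R 4.3.3) over 30367 probes, of which 18926 to 21042 per array were well above background. Precision is set by how many arrays there are. Single probes were also tested with an exact permutation over all 1716 splits of the arrays, or the 1225 regroupings within slides.

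The members and gene lists were chosen with earlier results of these data known. Named are all members and, from the lists, genes whose brightest probe had an unadjusted p under 0.05, with Nfkb2, Nfkbie, Traf2 and Tnfaip3 whatever their value, and markers above background on no array. The exact permutation p of a list gene or marker picked by that threshold is not separate support. The alternatives comprised normexp with an offset of 50, centring on the 75 percentile, quantile and cyclic loess normalization, a filter on dim probes, slide or replicate number as a block, the authors' table, the mean of a gene's probes, a q-value of 0.05 and leaving out each array. Centring on the median over spots, and quantile and cyclic loess normalization together with slide, were chosen after seeing the data.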

Additional observations from a re-analysis of the deposited data

Results flagged for a closer look

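In 2 of the 18 groups of member probe and diet, 1 array stood apart from the other 6 by Dixon's test, which chance alone does in about 1 of 20 groups. Both were HPD replicate 1. Its Nfkb1 level was 3.32, and the next highest HPD level was 2.79. Its Traf6 level was 2.58, and the next highest was 2.02.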

How the results depend on the processing

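Nfkb1, the first Rela probe, Nfkbia and Traf6 were lower in HPD-fed rats under every alternative, with log2 fold changes of -0.53 to -0.35, -0.45 to -0.25, -0.48 to -0.26 and -0.74 to -0.54. The Rela range includes the authors' table, which holds 1 value per gene. The mean of both Rela probes was also lower, at -0.15. Over all probes, 5142 were called with normexp (3274 higher, 1868 lower), 8479 with normexp and slide as a block (5246 higher, 3233 lower), 18 in the authors' table (11 higher, 7 lower), 2767 there with slide as a block (1050 higher, 1717 lower), 27 with slide as a block (23 higher, 4 lower), 71 with quantile normalization and slide (41 higher, 30 lower), 40 with cyclic loess and slide (26 higher, 14 lower), and 9 to 151 when 1 array was left out, the 151 (65 higher, 86 lower) without HPD replicate 1. The cause of these differences was not tested. Member probes called numbered 4 with normexp, 4 with normexp and slide, 0 in the authors' table, 3 there with slide, and 0 to 1 when 1 array was left out. Member probes at an unadjusted p under 0.05 numbered 5 with normexp (33.7% of all probes passed too), 5 with normexp and slide (36.6%), 4 in the authors' table (23.4%), 4 there with slide (26.9%), 4 with the filter on dim probes (15.8%), and 2 to 4 when 1 array was left out, with 4 without HPD replicate 1 (19.5%) and 4 without NPD replicate 6 (15.4%). Whether the replicate numbers pair the rats is not known. Correlations between same-numbered arrays ran from -0.09 to 0.39, and 1 of 7 NPD arrays correlated best with its own number, which cannot exclude a pairing. With the replicate block 8 probes were called over all (7 higher, 1 lower), no member was, and 4 members had an unadjusted p under 0.05 (21.2% of all probes). Members with small differences changed sign. The second Rela probe gave -0.081 with slide, -0.013 with normexp and slide, -0.076 with quantile normalization and slide, -0.068 with cyclic loess and slide, and -0.14 to 0.23 when 1 array was left out. Nfkbib gave -0.058 with normexp, -0.085 with normexp and slide, -0.060 in the authors' table and -0.071 there with slide. Ikbkb gave -0.018, -0.055, -0.020 and -0.040 under the same settings. Chuk gave 0.014 with slide, 0.024 with centring on spots, 0.043 with quantile normalization and slide, 0.045 with cyclic loess and slide, and -0.16 to 0.041 when 1 array was left out. Ikbkg gave -0.051 with cyclic loess and slide. Within slides the exact permutation p was 0.678 for the second Rela probe and 0.926 for Chuk, with the sign turned. Ikbkg is close to background, which limits what can be said of it.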
